A study of Mus musculus with 12 samples.

Results

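The comparison described here is the interaction of LPS with Nur77 in open chromatin of RAW264.7 cells, a mouse macrophage line. It asks at which genomic regions LPS moved accessibility differently in cells that express Nur77 than in cells that express green fluorescent protein (GFP). Accessibility was measured by ATAC-seq, in which a transposase cuts and tags open DNA, and each library is given as 1 list of called peaks in mm10 coordinates. All 12 libraries came from stable macrophage lines in which doxycycline (1 µg/ml, 18 h) switched on Nur77 or GFP. They form 4 groups of 3: the GFP line without LPS and after LPS (500 ng/ml, 1 h), and the Nur77 line without LPS and after LPS. Doxycycline is shared by all 4 groups, and the lines carry the native Nr4a1 gene beside the introduced one. The labels do not say how many clones a line holds, or that replicates were separate cultures. P-values therefore measure the spread between these libraries, which may be technical, and a lasting difference between the 2 lines cannot be told apart from an effect of the induced protein.

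Every list was trimmed to the 36184 strongest peaks, the length of the shortest, and peaks of all lists were merged. Of 53152 merged regions, the 45642 present in at least 2 trimmed lists were kept. The value of a region in a library is its percentile by the authors' -log10 q within that trimmed list, where 100 is the strongest peak and 0 means that no peak was kept there. The interaction is the LPS change in the Nur77 line minus the LPS change in the GFP line, in percentile points. A negative interaction thus marks a region that gained less, or lost more, with LPS in Nur77 cells. The 200 lowest and 200 highest of the 45642 regions are described as the 2 extremes. The last region inside the low extreme had an interaction of -38.37 and the first outside -38.35, and the corresponding values at the high extreme were 34.23 and 34.20.

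LPS, a component of the outer membrane of gram-negative bacteria, is sensed by the receptor Tlr4, which activates the NF-kB and AP-1 transcription factors and a later interferon response. These factors open enhancers near cytokine and feedback genes within the first hour. Nur77 is an orphan nuclear receptor encoded by Nr4a1. The gene is itself an immediate early gene of activated macrophages, and the protein binds the element AAAGGTCA and is known to restrain inflammatory gene expression.

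Sequences are shown for promoters in the extremes, first for a gene family whose copies differed. The Bcl2a1 family holds inhibitors of apoptosis that NF-kB induces, and its genes lie as copies on chromosome 9. A 47-base stretch was taken from the promoter window of each copy (250 bases before to 50 after the annotated start, RefSeq, GRCm38.p6, the assembly of mm10). The stretches lie at chr9:88956780-88956826 for Bcl2a1a (+ strand), chr9:89199089-89199135 for Bcl2a1b (+), chr9:114329885-114329931 for Bcl2a1c (+) and chr9:88731938-88731984 for Bcl2a1d (-). Capitals mark the letters TGANTCA searched here for AP-1, where N is any base. In Bcl2a1a, Bcl2a1b and Bcl2a1d that base is A. In Bcl2a1c capitals mark the same position with the substitution C6G, counted from the first of these letters.
Bcl2a1a: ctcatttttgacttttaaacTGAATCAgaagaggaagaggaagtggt
Bcl2a1b: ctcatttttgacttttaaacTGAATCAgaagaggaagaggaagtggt
Bcl2a1c: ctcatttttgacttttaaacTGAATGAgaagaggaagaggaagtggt
Bcl2a1d: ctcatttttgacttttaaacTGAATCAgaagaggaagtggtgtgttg

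The stretches of Bcl2a1a and Bcl2a1b are the same, and the full windows of these copies share a run of 174 bases. Bcl2a1a shares runs of 81 bases with Bcl2a1c and 84 bases with Bcl2a1d. Reads inside such runs cannot be assigned to 1 copy, so values at these genes are uncertain.

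Whole windows are shown for promoters at each extreme outside that family. Lat, the gene of an adaptor of T cell receptor signalling, lay in the low extreme (chr7:126369519-126369818, - strand). Amotl1, the gene of a tight junction protein, also lay in the low extreme (chr9:14614951-14615250, -). Arl6ip4, the gene of a splicing-related nuclear protein, lay in the high extreme (chr5:124115858-124116157, +). Tnfsf14, the gene of the cytokine LIGHT, lay there too (chr17:57194132-57194431, -), and capitals in its window mark an AP-1 motif at position -160 from the start.
Lat: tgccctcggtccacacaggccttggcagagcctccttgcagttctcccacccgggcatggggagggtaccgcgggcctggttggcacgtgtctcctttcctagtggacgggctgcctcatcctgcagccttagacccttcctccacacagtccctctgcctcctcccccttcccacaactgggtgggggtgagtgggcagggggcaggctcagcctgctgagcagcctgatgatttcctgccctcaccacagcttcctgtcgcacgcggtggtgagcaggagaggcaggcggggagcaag
Amotl1: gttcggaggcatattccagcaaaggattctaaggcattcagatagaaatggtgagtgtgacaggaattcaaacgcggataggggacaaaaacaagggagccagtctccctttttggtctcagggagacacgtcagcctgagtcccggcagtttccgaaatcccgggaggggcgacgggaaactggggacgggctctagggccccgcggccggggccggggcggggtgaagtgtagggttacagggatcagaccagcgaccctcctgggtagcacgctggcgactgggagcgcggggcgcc
Arl6ip4: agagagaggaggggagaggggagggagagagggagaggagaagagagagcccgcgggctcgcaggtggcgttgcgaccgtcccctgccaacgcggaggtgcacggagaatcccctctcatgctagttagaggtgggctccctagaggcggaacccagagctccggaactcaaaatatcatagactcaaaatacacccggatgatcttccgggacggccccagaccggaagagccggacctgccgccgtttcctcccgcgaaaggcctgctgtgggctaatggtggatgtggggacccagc
Tnfsf14: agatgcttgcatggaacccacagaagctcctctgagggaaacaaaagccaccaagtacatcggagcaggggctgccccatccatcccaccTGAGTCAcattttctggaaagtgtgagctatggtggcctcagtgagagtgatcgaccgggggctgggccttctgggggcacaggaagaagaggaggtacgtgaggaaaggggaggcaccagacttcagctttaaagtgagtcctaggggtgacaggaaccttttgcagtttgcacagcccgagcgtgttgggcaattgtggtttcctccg

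AP-1, NF-kB and Nur77 motifs were searched on both strands of all 21263 promoter windows, spelled TGANTCA for AP-1, GGG then any 3 bases then TTCC for NF-kB, and AAAGGTCA for Nur77. The AP-1 letters occurred in 6.99% of all windows, the NF-kB letters in 5.76% and the Nur77 element in 1.30%. In the 10718 windows that lay in a region kept, the shares were 4.89%, 6.59% and 0.858%. Of 318 windows in regions that opened with LPS on average over the lines, the AP-1 letters were in 14.8%, those of NF-kB in 12.9% and AAAGGTCA in 1.89%. The extremes covered few promoters, 7 windows at the low and 10 at the high one. AP-1 matched in 1 window of each (Bcl2a1a and Tnfsf14), NF-kB in 1 of each (Zfp3 and Gm15448), and the Nur77 element in 0 of each. A match describes the letters and does not show binding.

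The libraries differed in reach. Deposited lists held 36184 to 81467 peaks, and the last peak kept after trimming had a -log10 q of 3.42 in untreated Nur77 replicate 2 and 7.09 in LPS-treated GFP replicate 1, against 7.82 to 26.1 in the other 10. A region missing from both of these low-edge libraries is pushed to a higher interaction. The next lowest edge, 7.82 in LPS-treated Nur77 replicate 2, is nearly as low, and a region missing there is pushed to a lower one. Results are therefore also given without the first 2 and without all 3 of these libraries. Peak number, covered length and the share of peaks at gene ends gave interactions of 2739 peaks, -0.430 Mb and 0.0424 percentage points, none of which passed an exact permutation test over 400 arrangements (two-sided p = 0.845, 0.98 and 0.92, adjusted p = 0.98 for each). As a check of the cell type, promoter windows were at hand for 9 of 13 macrophage identity genes, and all 9 were called in 12 of 12 libraries, from Itgam at a median percentile of 35.6 to Cd68 at 99.1. Of the windows of 4 T cell, 2 B cell, 3 fibroblast and 4 epithelial markers, 0 were called in any library. Among 4 neuronal markers only Tubb3 was called, in 10 libraries.

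The gene behind the comparison, Nr4a1, was read first. Inside it, a region at chr15:101270092-101272260 was at 0 in all 6 GFP libraries. In the Nur77 line it stood at 9.70, 22.0 and 1.71 without LPS and at 8.10, 31.3 and 0 with LPS. The groups of that line overlap, and the interaction was 1.98 ± 10.3 (SE, limma, adjusted p = 0.974). Peaks from introduced and native copies cannot be told apart in these lists. At the Nr4a1 promoter (chr15:101265685-101267396) all 12 libraries had a peak, and the interaction of 7.60 ± 12.1 did not pass (adjusted p = 0.884). The direction turned at the promoter without untreated Nur77 replicate 2 (-3.97), and at the first region without untreated Nur77 replicate 3 (-2.73) or LPS-treated Nur77 replicate 2 (-7.09). None of the 5 regions inside Nr4a1 passed the test.

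Most of the LPS response was alike in direction in the 2 lines, and the interactions that passed were few and more often lower. Over all 45642 regions the interaction had a median of 0.38 percentile points, quartiles of -5.56 and 6.30 and a range of -70.1 to 65.0. In limma's fit over all regions, 233 (0.51%) had a higher and 505 (1.11%) a lower interaction at an adjusted p under 0.05. An unadjusted p under 0.05 was reached by 4873 regions (10.7%). Where every library of 3 groups is at 0, those groups add no spread. The p-value then rests on the 3 libraries of the remaining group and on limma's prior variance. When limma's prior variance was allowed to follow the mean level and made robust, 28 (0.0613%) higher and 76 (0.167%) lower regions remained called, and 102 of these 104 were among the 738. At such a region inside Rbfox1 (chr16:6841756-6842868) limma's adjusted p went from 3.18e-05 to 0.0188. Using the lists at full length reduced the counts to 61 and 133. Leaving out the 2 low-edge libraries gave 210 higher and 662 lower regions, and leaving out all 3 gave 208 and 698.

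Without LPS, 1293 regions (2.83%) were higher and 2020 (4.43%) lower in the Nur77 than in the GFP line. More regions passed for LPS within a line than for the interaction. The standard error of the interaction is larger in this design, so these counts do not compare effect sizes. In the GFP line 4160 regions (9.11%) gained and 3190 (6.99%) lost rank, and in the Nur77 line 3026 (6.63%) gained and 2012 (4.41%) lost. Across regions the 2 responses had a Pearson correlation of 0.683 and a Spearman correlation of 0.562, with the same sign in 63.9% of regions. These describe regions of the same lists and carry no p. For the mean of both lines, 5539 regions opened (12.1%) and 5197 closed (11.4%). A region seen in 1 LPS group alone moves this mean and the interaction together, so the interaction within these sets is a description. In opened regions the median gain was 23.6 points in the GFP and 19.3 in the Nur77 line, the median interaction was -2.75, and 384 had a lower against 93 with a higher interaction. In closed regions the median loss was -17.8 and -14.9 points and the median interaction 2.87, with 107 lower and 126 higher calls. Leaving out 1 library moved the closed median from 0.74 (without untreated Nur77 replicate 1, with losses of -17.6 and -17.4) to 5.32 (without LPS-treated GFP replicate 3). It moved the opened median from -5.12 (without LPS-treated GFP replicate 1) to -1.35 (without LPS-treated Nur77 replicate 1). The median interaction over opened regions stayed below that of all regions in every setting tried except counting calls in place of percentiles, where both were 0.

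**Figure D1:**
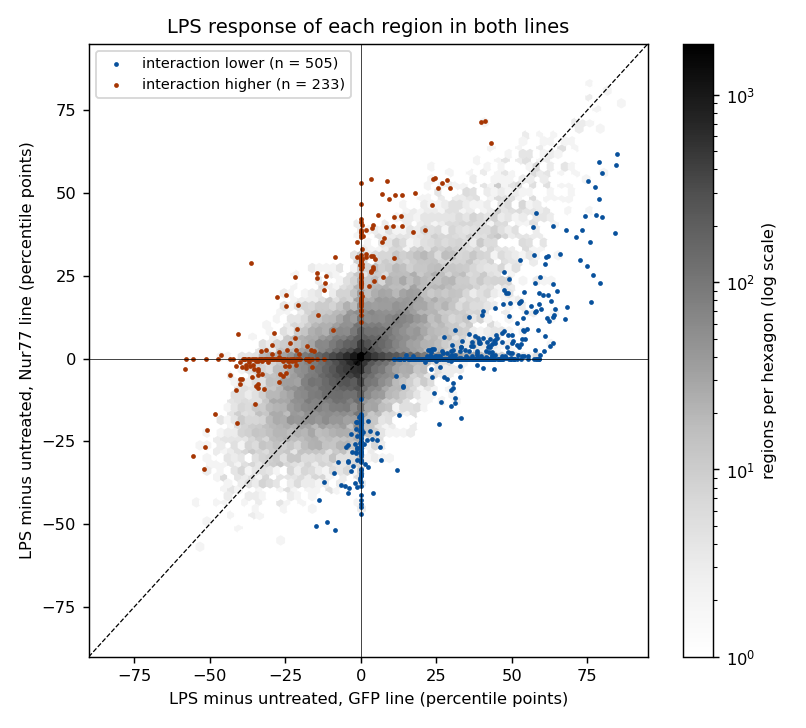
LPS change of each region in the GFP line (x axis) and in the Nur77 line (y axis), both in percentile points, for 45642 regions, with grey hexagons shaded by the number of regions on a log scale and a dashed line where both changes are equal. Coloured points are regions past the interaction threshold, 505 lower (blue) and 233 higher (red); many blue points lie along the horizontal axis, where GFP cells gained and Nur77 cells changed little.

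At the low extreme the dominant form was a gain in GFP cells with little or none in Nur77 cells. Of the 200 regions, 169 gained at least 20 points with LPS in the GFP line and moved by less than that in the Nur77 line. In 21 the GFP line moved by less than 20 points and the Nur77 line lost, in 9 both gained, and in 1 the lines moved in opposite directions. The median of the group means was 0 in untreated GFP, 49.7 in LPS-treated GFP, 0 in untreated Nur77 and 3.57 in LPS-treated Nur77 cells. These values chose the regions and are a description. In 58 of the 200, none of the 6 Nur77 libraries had a peak in the trimmed list. This held for 3142 of all 45642 regions and for 328 of the 5539 that LPS opened. Low values in LPS-treated Nur77 cells helped choose the 200, so the count is a description. A missing peak is not closed chromatin: of the 67 regions with no trimmed peak in any LPS-treated Nur77 library, 23 had none in the full lists either, and 11 had one in all 3.

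**Figure D2:**
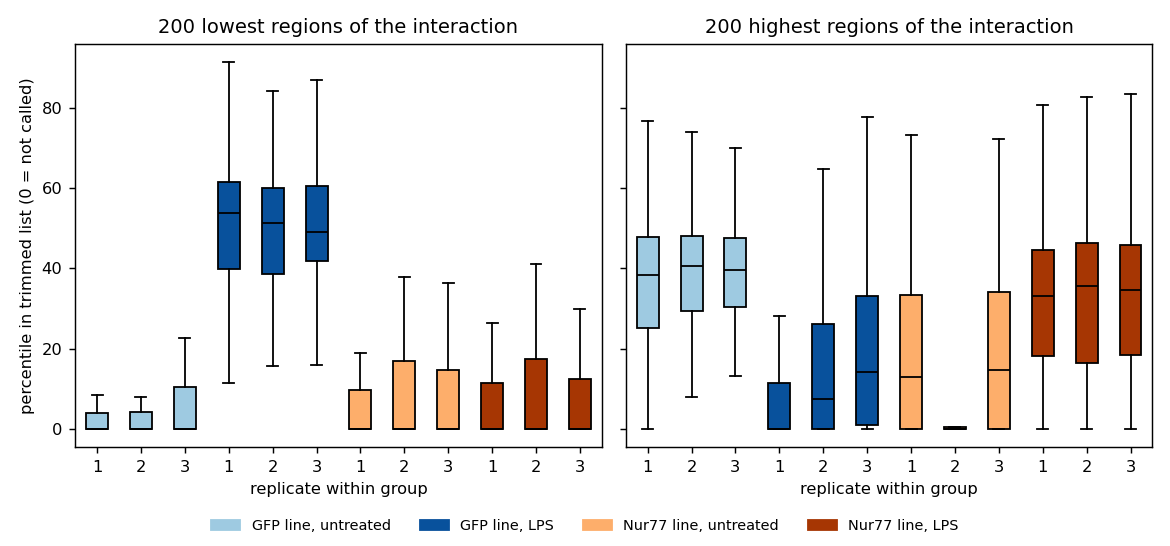
Percentile in the trimmed list (y axis, 0 = no peak) of the 200 lowest and 200 highest regions in each of the 12 libraries (x axis, replicate within group). Boxes show quartiles and median, whiskers reach the farthest value within 1.5 times the interquartile range; the low extreme is raised in all 3 LPS-treated GFP libraries, with medians of 49.0 to 53.6, and the high extreme has a median of 0 in LPS-treated GFP replicate 1 and untreated Nur77 replicate 2.

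What these regions share beyond the values that chose them is a distal position. Of the low extreme, 6.0% lay no farther than 1000 bp from a protein-coding gene end, against 25.7% of all regions and 9.21% of regions that LPS opened. Promoter windows were covered by 3.5% against 18.3% of all regions, but also by only 4.66% of LPS-opened regions and 4.0% of the high extreme. At the other end of the scale, 21.5% lay over 50 kb from any protein-coding gene, against 7.78% of all and 13.7% of LPS-opened regions. The share on chromosome 12 was 11.5% against 4.45%, and without that chromosome the interaction gave 210 higher and 445 lower calls. The lines differed there without LPS too. Leaving it out took regions lower in untreated Nur77 than GFP cells from 2020 to 1572, and higher ones from 1293 to 1238. The regions named below at Bag5, Dlk1, Rsad2 and Pxdn lie on chromosome 12. Whether the untreated difference bears on their interaction was not tested. Median widths were 1000.5 bp and 1206 bp.

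The region with the lowest interaction of all lay 2.8 kb from Tmem125, a transmembrane protein gene, and did not pass. Its interaction of -70.1 ± 19.5 (SE) had an adjusted p of 0.152, with untreated GFP values of 53.6, 0 and 0.

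The lowest that passed lay 408.9 kb from Jarid2, the gene of a cofactor of Polycomb repressive complex 2 (chr13:44320634-44321848). It stood at 8.39, 14.5 and 10.5 in untreated and at 91.3, 84.1 and 86.8 in LPS-treated GFP cells. In Nur77 cells it was at 0 without LPS in all 3 libraries and at 15.9, 14 and 21.7 with LPS. No LPS-treated library of one line overlapped those of the other, which describes values that also chose the region. The interaction was -59.0 ± 3.88 (limma, adjusted p = 0.000144). Counted only as called or not, the direction turned, with a trimmed peak in all 6 GFP libraries, and in the full lists it was -8.45 (adjusted p = 1.0).

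Rbfox1, a gene of a neuronal splicing factor, held 3 low-extreme regions within a stretch of 62.6 kb. The first (chr16:6841756-6842868) was at 55.7, 62.1 and 59.3 in LPS-treated GFP libraries and at 0 in the other 9. Its interaction was -59.0 ± 2.70 (adjusted p = 3.18e-05), and it stayed called in the full lists (-60.0, adjusted p = 0.0234). The second (chr16:6827080-6828697) stood at 66.3, 67.2 and 54.9 against 0, 4.23 and 10.5 in GFP cells and at 0 in all 6 Nur77 libraries. In the full lists its interaction of -41.2 did not pass (adjusted p = 1.0). The third (chr16:6889082-6889675) was at 28.1, 52.8 and 36.6 in LPS-treated GFP libraries only. None of the 3 regions had a trimmed peak in any Nur77 library.

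At the low extreme, 4 regions lay over 230.9 kb between Gli3, a transcription factor of Hedgehog signalling, and Inhba, which encodes the activin A subunit that activated macrophages secrete. The region 47.4 kb from Gli3 (chr13:15777417-15778152) was at 55.7, 59.0 and 62.2 in LPS-treated GFP libraries and at 0 in all others. Its interaction was -59.0 ± 2.72 (adjusted p = 3.18e-05), and -70.7 in the full lists (adjusted p = 0.00254). A region 117.6 kb from Gli3 had an interaction of -58.8 ± 4.15 (adjusted p = 0.000209), but -15.7 in the full lists (adjusted p = 1.0) and the other direction as calls (33.3). Toward Inhba, a region 96.0 kb from it stood at 53.6, 49.8 and 49.0 and one inside the gene at 39.9, 51.4 and 35.5, each only in LPS-treated GFP libraries (interactions -50.8 and -42.2). All 4 thus shared the pattern of a gain in GFP cells with values of 10.9 or less in Nur77 cells.

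The region over the Bcl2a1a promoter (chr9:88956306-88957164) was at 43.1, 67.2 and 61.7 in LPS-treated GFP cells and at 0 in the other 9 libraries. Its interaction was -57.3 ± 6.93 (adjusted p = 0.00292), but in the full lists it was -30.7 (adjusted p = 1.0), where all 3 LPS-treated Nur77 and all 3 untreated GFP libraries had a peak. A second region in Bcl2a1a stood at 57.8, 49.8 and 47.6 against 2.03, 2.61 and 7.69 after LPS. The other copies responded in both lines. Bcl2a1c went from 0 in all untreated libraries to 36.4, 48.2 and 41.7 in GFP and to 41.9, 41.2 and 34.5 in Nur77 cells (interaction -2.88, adjusted p = 0.876). At Bcl2a1b the interaction was 1.03 (adjusted p = 0.968) and at Bcl2a1d -1.39 (adjusted p = 0.970), and the LPS-treated groups of the 2 lines overlapped at both. Given the shared sequence printed above, peaks at one copy may hold reads of another.

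**Figure D3:**
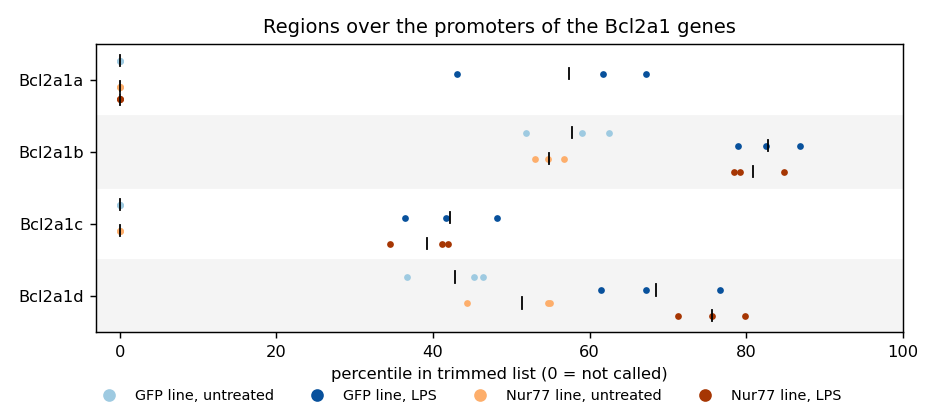
Percentile in the trimmed list (x axis, 0 = no peak) of the region over each Bcl2a1 promoter, with 1 point per library, coloured by group, and black bars at the group means (n = 3). LPS-treated GFP cells reach 43.1 to 67.2 at Bcl2a1a while all Nur77 libraries are at 0, and the other copies rise with LPS in both lines.

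The remaining low regions named here repeat this form, with mean gains of 55.3 points at Tspan2 to 79.1 points at Bag5 in GFP cells. They lay inside Ext1, a heparan sulfate polymerase gene (-58.7), 12.6 kb from Slco2a1, a prostaglandin transporter gene (-58.5), 61.7 kb from Tbx4, a limb and lung transcription factor gene (-58.3), and 69.2 kb from Otos, an inner ear protein gene (-58.0). Further ones lay 8.0 kb from Bag5, an Hsp70 cochaperone gene (-56.3), 60.7 kb from Dlk1, a Notch-related ligand gene (-55.8), 84.9 kb from Tspan2, a tetraspanin gene (-55.3), and inside Gm19410 (-54.9). Adjusted p-values ran from 6.44e-05 at Ext1 to 0.00728 at Tspan2. Bag5 alone of these 8 also passed in the Nur77 line (gain 22.8, adjusted p = 0.000223), from 0 in all 3 libraries to 20.4, 26.4 and 21.7, against 82.1, 74.8 and 80.3 in GFP cells. In the full lists only Tbx4 (adjusted p = 0.0153) and Otos (adjusted p = 0.0407) of these 8 stayed called.

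At promoters in the low extreme, Lat was at 59.7, 44.8 and 51.7 in LPS-treated GFP libraries and at 3.49 or less in all others (-50.9 ± 4.57, adjusted p = 0.000617). The region also covers Spns1. Amotl1 stood at 39.9, 63.0 and 57.9 after LPS in GFP cells and at 2.03 or less in LPS-treated Nur77 cells (-50.7, adjusted p = 0.00577). Zfp3, a zinc finger gene, differed in form, since the Nur77 line lost rank there, from 59.9, 66.3 and 64.2 to 38.4, 35.6 and 15.2, while GFP values overlapped (-45.9, adjusted p = 0.036).

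**Figure D4:**
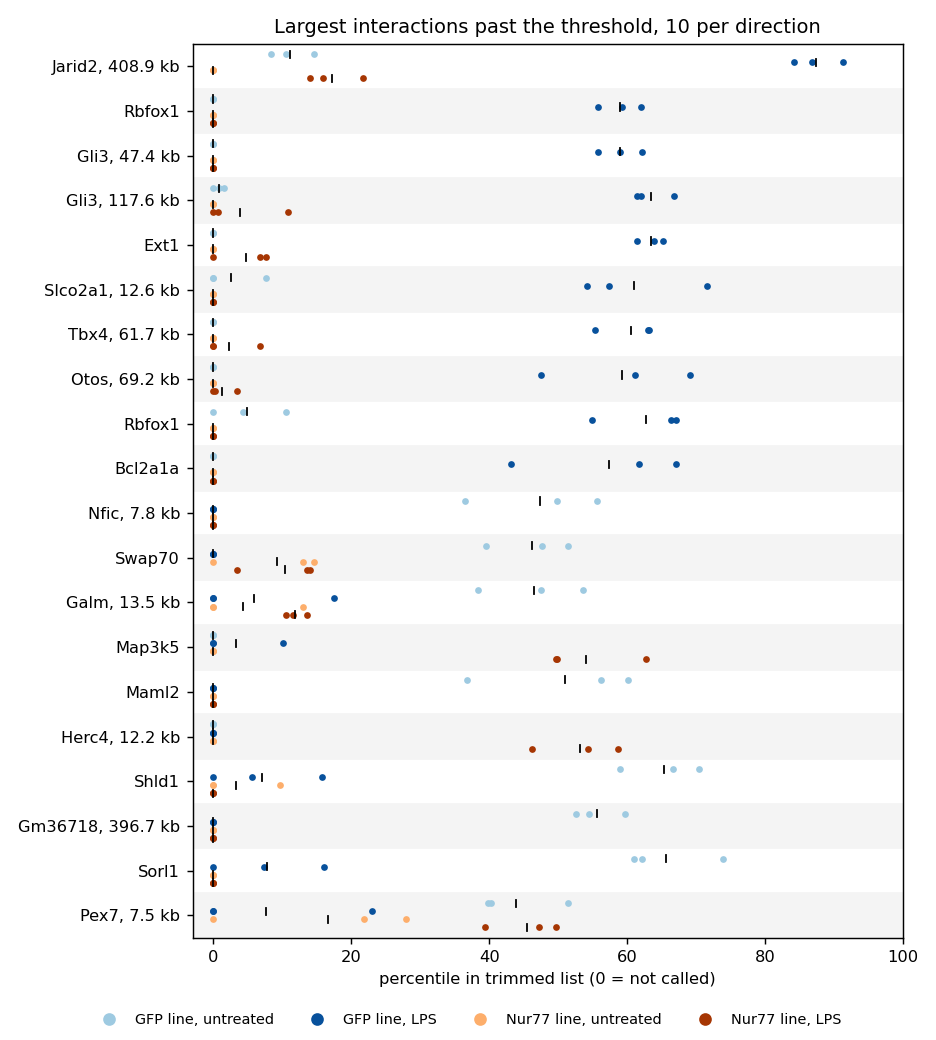
Percentile in the trimmed list (x axis, 0 = no peak) of the 10 lowest and 10 highest regions past the interaction threshold, labelled by the nearest gene and its distance, with 1 point per library and black bars at the group means (n = 3). The lower interactions, from Jarid2 to Bcl2a1a, are high in LPS-treated GFP cells alone; the higher ones are high either in untreated GFP cells (Sorl1, Maml2, Nfic) or in LPS-treated Nur77 cells (Herc4, Map3k5).

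The high extreme was a mixture. In 108 of 200 regions GFP cells lost at least 20 points with LPS and Nur77 cells moved less, in 66 Nur77 cells gained and GFP cells moved less, in 12 the lines moved in opposite directions, in 12 neither moved by 20 points and in 2 both gained. Of the 200, 61 passed the test, and 151 did at the low extreme, where over all regions 0.51% passed as higher and 1.11% as lower. Both sets were chosen by the size of the tested value, with edges of 34.23 and -38.37, so these counts are a description. In the 2 low-edge libraries, 126 regions had no peak in LPS-treated GFP replicate 1, 150 had none in untreated Nur77 replicate 2, and 105 had none in either. Low values in these 2 groups helped choose the regions. Replicates 2 and 3 of LPS-treated GFP cells lacked 83 and 44 of them. Replicates 1 and 3 of untreated Nur77 cells lacked 71 and 66. The cause of these differences was not tested. Without both low-edge libraries the median interaction was 33.6 rather than 37.8, 128 regions still reached 30 points and 49 passed. At the low extreme it was -43.0 rather than -43.3, 195 still reached 30 points and 122 passed. Without all 3 low-edge libraries the medians were 33.4 and -44.0, and 40 and 121 regions passed. The share of gene-end regions was 11.5% and of regions over 50 kb from a gene 8.0%.

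Pex7, which encodes the receptor that imports enzymes into peroxisomes, lay 7.5 kb from the highest region (chr10:19915206-19915909). GFP values went from 40.2, 39.9 and 51.4 to 0, 0 and 23.1 with LPS, and Nur77 values from 21.9, 0 and 27.9 to 47.2, 39.4 and 49.7. The lines moved in opposite directions without overlap of the groups within a line, which describes values that also chose the region. The interaction was 65.0 ± 11.5 (limma, adjusted p = 0.0232) and 52.9 without the 2 low-edge libraries (adjusted p = 0.0477). It was 55.9 without all 3 (adjusted p = 0.0675) and 72.2 in the full lists (adjusted p = 0.925). A second high region 22.4 kb along the same locus lay inside Map3k5, the gene of the stress kinase ASK1 (chr10:19936626-19937640). It was at 49.9, 62.7 and 49.7 in LPS-treated Nur77 cells and, in the other groups, at 0 except 10 in 1 LPS-treated GFP library (50.8 ± 5.37, adjusted p = 0.00141). In the full lists all 3 LPS-treated GFP libraries had a peak there, and the interaction was 34.1 (adjusted p = 0.958).

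Herc4, a ubiquitin ligase gene, lay 12.2 kb from a region seen only in LPS-treated Nur77 cells (46.2, 54.4 and 58.7, 0 in the other 9 libraries). Its interaction was 53.1 ± 3.95 (adjusted p = 0.000255). The 2 regions 45.8 and 77.3 kb from Hao1, a glycolate oxidase gene, had the same form, with LPS-treated Nur77 values of 51.5, 52.3 and 36.7 and of 56.1, 44.5 and 44.0. The first was at 0 elsewhere, and the second reached 22.9 in 1 LPS-treated GFP library.

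Other high regions were open in untreated GFP cells and lost with LPS, while Nur77 cells had little to lose. Inside Sorl1, an endosomal sorting receptor gene, values were 61.0, 73.9 and 62.2 in untreated and 0, 7.40 and 16.0 in LPS-treated GFP cells, and 0 in all 6 Nur77 libraries (57.9 ± 6.0, adjusted p = 0.00129). A region 396.7 kb from Gm36718 had 52.5, 54.5 and 59.7 in untreated GFP libraries and 0 in all others (55.6). The same form was seen at Shld1, a DNA repair gene (55.0), Maml2, a Notch coactivator gene (51.1), Galm, a galactose metabolism gene (48.2), Swap70, a gene of cell migration (47.3), and 7.8 kb from Nfic, a transcription factor gene (47.3), with adjusted p-values of 0.00223 to 0.0172. For these regions a high interaction is the absence of a loss in Nur77 cells, and 0 gained 20 points there.

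Another 6 regions among the 15 highest did not pass: Cog6 (62.3), Chl1 (51.9), A530032D15Rik (50.2), Mcee (49.1), Iqgap2 (48.7) and Gbx1 (48.5), with adjusted p-values of 0.0585 at A530032D15Rik to 0.648 at Chl1. A530032D15Rik passed without the 2 low-edge libraries (adjusted p = 0.0288), Gbx1 in the strongest 20000 peaks (adjusted p = 0.0483) and Cog6 as calls (adjusted p = 0.0396). At Chl1 only 1 library of each of 2 groups had a peak. Among promoters of the high extreme, Arl6ip4 passed: GFP values went from 40.2, 46.5 and 36.7 to 4.52, 0 and 7.77, and Nur77 values overlapped (36.0, adjusted p = 0.026). Tnfsf14 (38.6, adjusted p = 0.172) and Cd274, the gene of the checkpoint ligand PD-L1 (40.6, adjusted p = 0.193), did not. None of the 10 highest regions that passed stayed called in the full lists. With the variance trend, 25 of 48 regions that passed, at the largest values or near list genes, stayed called, and 34 did without all 3 low-edge libraries, with Pex7, Maml2 and Tspan2 among those lost.

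Across 17 gene lists, regions within 50 kb of a list gene gave 12 higher and 12 lower interactions in all. The lower lean of the whole table, with shares of 0.51% higher and 1.11% lower, was not seen in these counts. A share over all list regions was not computed, so the counts do not show whether list genes differ from the whole table. None of these 24 calls was kept in the full lists. The regions named next were picked for passing the test or for a mean LPS change over 35 points, after their values were seen.

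Cytokine and chemokine genes had 76 of 199 regions opened by LPS on average, against 12.1% of all regions. Median gains in the opened ones were 28.6 points in the GFP and 27.9 in the Nur77 line. The list had 5 higher and 3 lower interactions. Il12b, the gene of the shared subunit of interleukins 12 and 23, had a region 8.9 kb away that went from 43.5, 38.4 and 35.2 to 79.0, 82.4 and 79.6 in GFP cells. Nur77 cells started at 0 in all 3 libraries and reached 70.4, 75.5 and 69.4. The higher interaction (30.5 ± 3.63, adjusted p = 0.00266) thus came with a lower start and a lower end in Nur77 cells, and turned to -15.5 when only the strongest 20000 peaks were used. Il1a, which encodes interleukin 1 alpha, had a region 0.9 kb away that went from 0 in all untreated libraries to 28.1, 34.2 and 26.2 in GFP and to 50.7, 54.4 and 49.7 in Nur77 cells (22.1 ± 3.32, adjusted p = 0.00982). The LPS-treated groups did not overlap, but the interaction was 9.18 in the full lists (adjusted p = 1.0) and missed the threshold without the 3 low-edge libraries (adjusted p = 0.060).

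Csf2, the gene of the growth factor GM-CSF, had a region 44.9 kb away seen only in LPS-treated Nur77 cells (35.9, 33.5 and 45.5), with an interaction of 38.3 (adjusted p = 0.00127). It also had 2 regions that opened in both lines, 9.7 and 22.2 kb away (interactions -5.30 and -4.82). Regions near Ccl9, a chemokine gene (29.8), and Il27, a cytokine subunit gene (16.4), passed and were lost without the 2 low-edge libraries (adjusted p = 0.0739 and 0.0832).

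Il1rn, which encodes the interleukin 1 receptor antagonist, held regions of both kinds. The region 0.9 kb away was at 39.9, 22.9 and 30.5 in LPS-treated GFP cells and at 0, 0 and 3.49 in LPS-treated Nur77 cells (-29.9, adjusted p = 0.0183). Another, 13.5 kb away, was at 23.1, 22.9 and 21.3 in LPS-treated GFP libraries only (-22.4, adjusted p = 0.00103). Inside the gene, a region went from 46.4, 44.0 and 44.3 to 80.5, 90.2 and 82.9 in GFP cells and from 0 to 55.4, 58.8 and 55.7 in Nur77 cells (17.0, adjusted p = 0.0519). After LPS, these 3 regions were lower in every Nur77 than in every GFP library. A region 23.0 kb from Ccl2, a monocyte chemoattractant gene, passed with a lower interaction (-20.3) and was lost without the 2 low-edge libraries (adjusted p = 0.064).

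Interferon response genes had 18 of 100 regions opened, against 12.1% of all regions. Median gains in the 18 were 36.8 points in the GFP and 25.1 in the Nur77 line. The median interaction over these opened regions was -3.08, against -2.75 over all opened regions. It was below 0 in 13 of the 18, or 72.2%, against 59.5% of all opened regions, a difference that was not tested, and 2 regions had a lower and 0 a higher call. One lay inside Rsad2, the antiviral viperin gene, at 39.9, 55.4 and 54.9 in LPS-treated GFP cells and 0 in all 6 Nur77 libraries (-43.2 ± 8.02, adjusted p = 0.029). The Rsad2 promoter went to 70.4, 61.1 and 62.6 in GFP and to 20.4, 42.9 and 21.7 in Nur77 cells, without overlap, and its interaction of -35.0 missed the threshold (adjusted p = 0.0568). Only 3.1 kb away another region reached 71.6, 76.6 and 75 in GFP and 64.4, 67.2 and 65.4 in Nur77 cells, an interaction of 3.67. The other call lay 11.4 kb from Isg15, a ubiquitin-like interferon effector gene, inside Perm1 (-46.1, adjusted p = 0.00348), while the Isg15 promoter opened in both lines (-2.95 ± 8.34, adjusted p = 0.946).

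NF-kB and feedback genes had 39 of 168 regions opened, against 12.1% of all regions, and 2 calls in each direction. Lower calls lay 9.3 kb from Nfkbiz, a nuclear regulator of NF-kB (-25.9, adjusted p = 0.00791), and 30.3 kb from Tnfaip3, which encodes the NF-kB brake A20 (-23.2, adjusted p = 0.0053). At the Tnfaip3 region GFP values reached 32.5, 36.5 and 38.7 and Nur77 values 15.9, 10.5 and 11.6, from 0 in all untreated libraries. Higher calls lay 34.7 kb from Rel, an NF-kB subunit gene (24.4), and 49.8 kb from Tnip1, an A20-binding protein gene, inside Anxa6 (36.0). Rel was lost without the 2 low-edge libraries (adjusted p = 0.116). Inside Nfkb1, values went from 0 to 61.5, 59.0 and 65.6 in GFP and to 62.9, 71.8 and 66.8 in Nur77 cells (5.15 ± 3.61).

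LPS effector genes had 31 of 96 regions opened, against 12.1% of all regions, and 1 call in each direction. Acod1, the itaconate synthase gene, had a promoter at 0 in all untreated libraries and at 83.4, 79.7 and 83.2 in GFP and 76.8, 82.9 and 84.2 in Nur77 cells after LPS. The interaction there was -0.83 ± 3.16 (adjusted p = 0.962). Plaur, the urokinase receptor gene, had a region 4.7 kb away at 35.9, 35.6 and 47 in LPS-treated Nur77 cells and at 2.19 or less elsewhere (38.8, adjusted p = 0.00131). Cd86, a costimulatory ligand gene, had a region 47.7 kb away with a lower interaction (-34.0, adjusted p = 0.0382), which was lost without the 2 low-edge libraries (adjusted p = 0.128) and turned to 6.11 in the full lists.

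AP-1 family genes had 161 regions and Toll-like receptor signalling genes 120, with 0 interaction calls in limma's fit for either list. Over all regions 0.51% passed as higher and 1.11% as lower, so 0 calls in lists of this size do not set them apart. A region 37.6 kb from Fosl2, an AP-1 subunit gene, went from 22.2, 22.6 and 13.2 to 76.1, 74.8 and 77.8 in GFP cells and from 26.7, 11.4 and 24.4 to 74.2, 78.5 and 78.3 in Nur77 cells (-0.71 ± 5.75). Irak2, a kinase gene of the receptor complex, had a region with an interaction of 0.86 ± 6.60. Single calls fell near Socs3, a cytokine signalling inhibitor gene (-18.3), Ier5, an immediate early gene (-40.4), Mitf, a transcription factor gene (-33.3), and Nr3c1, the glucocorticoid receptor gene (29.8). At Ier5 both lines opened, to 53.6, 59.0 and 56.8 in GFP and to 22.5, 10.5 and 15.2 in Nur77 cells, without overlap. TCA cycle and PGC-1 genes had 0 calls among 118 regions.

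Lists that stand for no LPS program gave calls as well. Housekeeping genes had 1 higher and 1 lower call among 92 regions. The higher (38.1) lay 8.8 kb from Tbp, inside Psmb1. The lower (-22.8) lay 43.3 kb from Ppia and 3.2 kb from Purb. T cell markers had 2 higher calls among 43 regions, 39.8 kb from Cd8a (29.0) and 23.1 kb from Cd4 (21.5). Tbp (adjusted p = 0.103) and Cd8a (adjusted p = 0.0851) were lost without the 2 low-edge libraries. Without all 3, calls near Socs3, Rel, Tnip1, Ccl2, Rsad2, Cd86, Tbp, Il1a, Cd4, Cd8a and Il27 were lost. B cell, fibroblast, epithelial and neuronal markers had 0 calls in limma's fit among 24, 23, 34 and 24 regions. Over all regions 0.51% passed as higher and 1.11% as lower, and these lists are too short to be set against those shares. With the variance trend, 3 of the 24 list regions stayed called: Isg15, Plaur and Csf2.

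**Figure D5:**
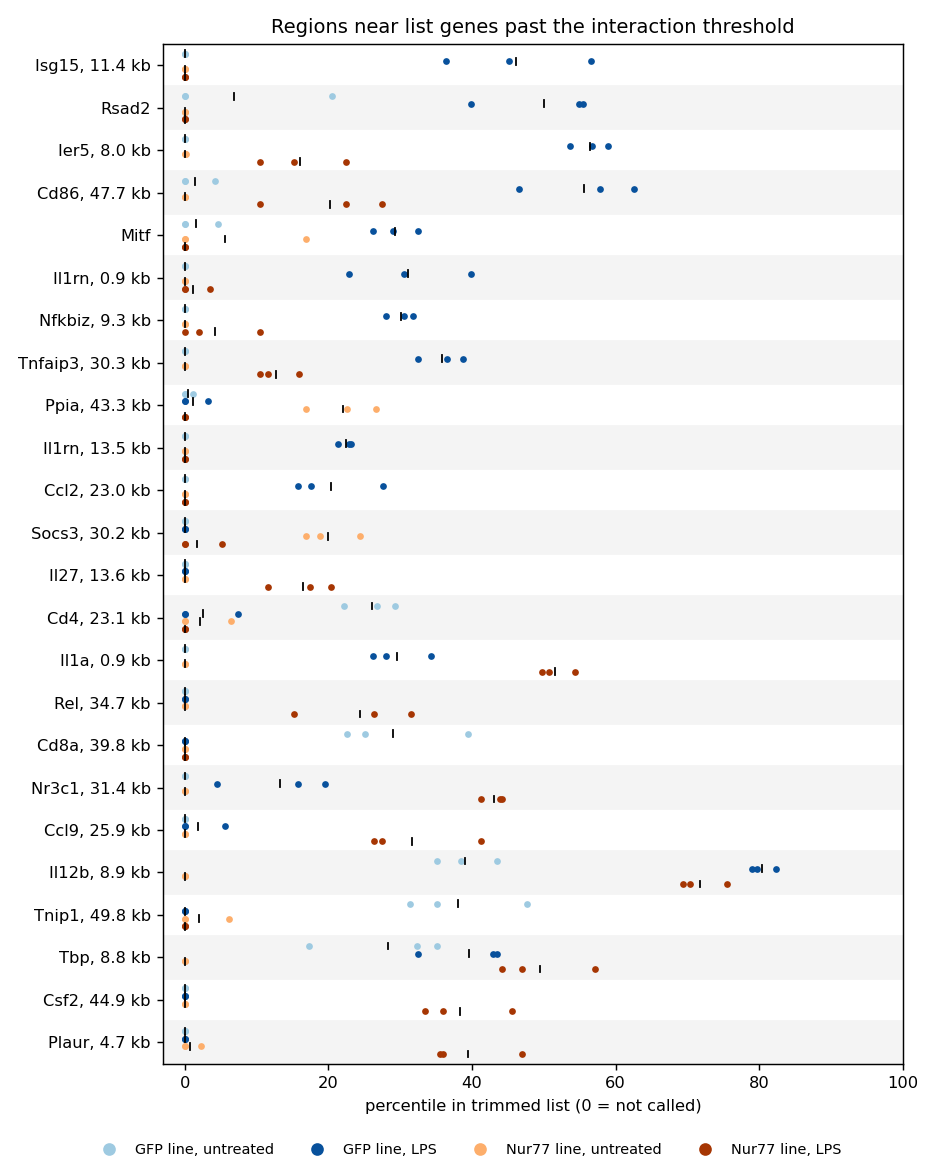
Percentile in the trimmed list (x axis, 0 = no peak) of the 24 regions within 50 kb of a list gene that passed the interaction threshold, labelled by that gene and its distance, with 1 point per library and black bars at the group means (n = 3). Rows from Isg15 to Socs3 have a lower and rows from Il27 to Plaur a higher interaction; Il12b and Il1a open with LPS in both lines, whereas Csf2 and Plaur are raised in LPS-treated Nur77 cells only.

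Presence and absence of peaks recount the same lists, and their patterns did not all lean one way. In trimmed lists, 391 regions were called in all 3 LPS-treated GFP libraries and in 0 of the other 9, against 116 called only in LPS-treated Nur77 cells. Of these, 148 and 34 passed the interaction test. Such regions met the minimum of 2 lists only through the group where they are high, so these counts are a description. Regions in 2 or 3 lists made up 172 of 505 lower and 73 of 233 higher calls, against 6588 of all 45642 regions. With a minimum of 4 lists, the test gave 274 lower and 128 higher calls. Regions called in all libraries of both LPS groups and in 0 untreated ones numbered 547. Regions called in untreated cells only numbered 152 for GFP, 150 for Nur77 and 95 for both. Other patterns went toward a higher interaction. Regions called in all libraries except every untreated Nur77 one numbered 131, against 34 missing only from every LPS-treated Nur77 one. Those missing only from every LPS-treated GFP library numbered 111, against 63 missing only from every untreated GFP library.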

How the data were processed

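Each of the 12 ATAC-seq libraries was used as 1 deposited narrowPeak list, called per library. Coordinates are mm10, and the tools named are DiffBind 3.0.15 and cutadapt 2.6, all per the submitters' processing notes. Aligner and caller: not given in the sources used here. Read depth is unknown. The score is the authors' whole number per peak in the deposited lists. The fold is the authors' deposited enrichment ratio at the summit, and the -log10 p and -log10 q are the authors' deposited values at the summit. They served to order or select peaks inside each list.

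Rows with the same start and end were collapsed and chromosomes 1 to 19, X and Y kept. Lists were trimmed to 36184 peaks by -log10 q, merged, and regions in at least 2 lists kept. Percentiles were fitted with limma 3.58.1 (R 4.3.3) over 45642 regions, without covariates, two-sided, with Benjamini-Hochberg adjustment at 0.05. Trimming makes a weak peak 0, and a percentile holds no absolute level. Library totals were tested by exact permutation of line labels within treatments. Coordinates are 1-based. Distances run to the span of 21887 protein-coding RefSeq genes, and promoter windows come from the same source. Region sequences were not used here.

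Named regions are up to 10 per direction past the threshold, the 15 highest and 15 lowest, those inside Nr4a1, and regions near list genes that were at an extreme or at the top or bottom of their list. List regions that passed, or that had a mean LPS change over 35 points, and promoter regions at the extremes, were added after their values were seen. One marker gene of the lists is not reported here. The regions and gene lists were chosen with earlier results of these data known. Alternatives were other list lengths, a -log10 q of at least 5, ranking by fold, another merging overlap, other list minimums, calls in place of percentiles, a variance trend, a replicate block, no chromosome 12, and leaving out each library. Leaving out the 2 or the 3 libraries of lowest -log10 q at the trimming edge (low-edge libraries) was added after seeing the data. Python 3.11.15, numpy 2.4.6, pandas 2.3.3 and scipy 1.17.1 were used.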

Additional observations from a re-analysis of the deposited data

Results flagged for a closer look

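A difference in LPS response between the lines passed limma's test of the interaction at 48 named regions. Among the 15 lowest regions it passed near Jarid2 (-59.0), Rbfox1 (-59.0), Gli3 (-59.0), Gli3 (-58.8), Ext1 (-58.7), Slco2a1 (-58.5), Tbx4 (-58.3), Otos (-58.0), Rbfox1 (-57.9), Bcl2a1a (-57.3), Bag5 (-56.3), Dlk1 (-55.8), Tspan2 (-55.3) and Gm19410 (-54.9), in percentile points. Among the highest it passed near Pex7 (65.0), Sorl1 (57.9), Gm36718 (55.6), Shld1 (55.0), Herc4 (53.1), Maml2 (51.1), Map3k5 (50.8), Galm (48.2), Swap70 (47.3) and Nfic (47.3).

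Near list genes the lower interactions that passed were at Isg15 (-46.1), Rsad2 (-43.2), Ier5 (-40.4), Cd86 (-34.0), Mitf (-33.3), Il1rn (-29.9), Nfkbiz (-25.9), Tnfaip3 (-23.2), Ppia (-22.8), Il1rn (-22.4), Ccl2 (-20.3) and Socs3 (-18.3). The higher ones were at Plaur (38.8), Csf2 (38.3), Tbp (38.1), Tnip1 (36.0), Il12b (30.5), Ccl9 (29.8), Nr3c1 (29.8), Cd8a (29.0), Rel (24.4), Il1a (22.1), Cd4 (21.5) and Il27 (16.4). Of the 48 regions, 4 stayed past the threshold in lists at full length, near Gli3, Rbfox1, Tbx4 and Otos. Without the 2 libraries of lowest -log10 q at the trimming edge 41 stayed past it, and without the lowest 3, 34.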

How the results depend on the processing

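Higher and lower interactions numbered 61 and 133 in lists as deposited, 128 and 274 for regions in at least 4 lists, 28 and 76 with a variance trend and robust prior, and 518 higher (644 lower) for calls in place of percentiles. In the 16 named regions that pass as calls the libraries within each group were all alike, so the variance there is 0 and the p-value measures no spread. Leaving out 1 library gave 170 to 299 higher and 348 to 698 lower interactions. Of 48 named regions past the threshold, 4 stayed past it in lists as deposited, 25 with the variance trend, 16 as calls, and 38 to 45 without 1 library. Ranking by fold and merging at an overlap of 100 bp kept all 48. For the mean LPS response, opened and closed regions numbered 3678 and 1215 in lists as deposited, 3493 and 3430 among the strongest 20000 peaks, and 1813 and 899 as calls. The GFP line alone gave 2223 and 718, 2733 opened, and 1001 and 358 under the same settings. The Nur77 line gave 1428 and 217, 1956 opened, and 794 and 279, and 1297 to 2116 closed without 1 library, the lowest without LPS-treated Nur77 replicate 3. Untreated Nur77 against GFP cells gave 170 higher in lists as deposited, 769 higher and 1187 lower in the strongest peaks, and 325 and 552 as calls. Interactions of the totals ran from -4228.5 to 12367.5 peaks, -8.68 to 10.2 Mb and -0.0811 to 0.219 percentage points without 1 library. Directions turned at Il12b (-15.5, strongest peaks), Jarid2 (100), Gli3 (33.3) and Cd86 (33.3) as calls and Cd86 in lists as deposited (6.11). They also turned at regions inside Nr4a1. The one starting at chr15:101253477 gave 0.26 without the 3 low-edge libraries. The one starting at 101255321 gave 3.45 in lists as deposited, 1.36 without the 2 and 1.70 without the 3 low-edge libraries, and -9.64 to 1.36 without 1 library. The promoter region gave -4.83 without the 2, -4.62 without the 3 and -3.97 to 15 without 1 library. The one starting at 101270092 gave -33.3 as calls, -1.66 without the 3 and -7.09 to 8.54 without 1 library. The cause was not tested.

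Replicate numbers showed no clear pairing of the samples, which does not exclude a shared batch. Over 18 same-numbered pairs the correlation of deviations ran from -0.159 to 0.155, 2 were over 0.1, and 5 of 12 libraries correlated best with their own number. With the replicate number as a block, 153 higher and 343 lower interactions were called, 479 of them shared with the 738. Read depth is unknown, and a region missing from a trimmed list was not detectable there rather than shown to be closed.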

Other observations

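Neighbouring regions shared a direction at several loci. At the low extreme, 2 regions at Pxdn, a peroxidase gene of the extracellular matrix, lay within 99.3 kb of each other with a mean interaction of -42.3, and 2 between Cd83, a dendritic cell activation marker gene, and Jarid2 within 93.1 kb with a mean of -55.4. At the high extreme such pairs lay at Mtmr12, a myotubularin-related gene (mean 42.3, 50.5 kb), Camta1, a transcription activator gene (43.9, 67.0 kb), Galm (43.1, 68.2 kb), and Rassf8 and Bhlhe41 (36.1, 89.6 kb). The last is a clock-related repressor gene. Whether neighbours are more alike than distant regions was not tested.

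Opened regions of the MAPK, mRNA decay and SOCS feedback list leaned the other way from the whole table, with a median gain of 17.3 points in the GFP and 25.5 in the Nur77 line over 20 regions and a smaller gain in the Nur77 line in 5 of them. In 76 cytokine and chemokine regions the gain was smaller in the Nur77 line in 38. The difference between lists was not tested.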
